A study of Mus musculus with 4 samples.

Results

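The 9 genes described here encode transcription factors of the myogenic program: Pax7, Six4, the 4 myogenic regulatory factors Myf5, Myod1, Myog and Myf6, and the MEF2 factors Mef2a, Mef2c and Mef2d. The members are given by symbol, with no threshold on a measured value, in a list drawn up with earlier results of these data known, and all 9 were found among the 24054 gene symbols of the table. The samples were soleus muscles, a slow hindlimb muscle, of female *mdx* mice (C57BL/10ScSn background), whose dystrophin gene is mutated in both groups, so that their muscle fibers lack dystrophin. Mice entered at 8 weeks of age and were infused into the femoral vein once monthly, and muscles were taken at the 12-month endpoint. The mCDC group had received mouse cardiosphere-derived cells at passage 5, grown out of 1 heart of a C57BL/10ScSn/J mouse, and the vehicle group had received the suspending medium, IMDM, alone. Each group had 2 libraries, and whether the muscles of a group came from separate animals is not stated in so many words. The p-values therefore rest on the spread between libraries, estimated jointly with other genes, and cannot be taken to measure the spread between animals. No untreated or healthy muscle was part of the comparison.

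As background, PAX7 marks satellite cells, the resident stem cells of muscle, and MYF5 and MYOD1 act when these cells are committed and activated. MYOG drives the exit from the cell cycle into differentiation and is also made in fibers that lose their nerve, while MYF6 is the regulatory factor most abundant in mature fibers. The regulatory factors are basic helix-loop-helix proteins that bind the E-box as dimers with E proteins. MEF2 proteins bind an A- and T-rich site and work with them, and SIX4 binds the MEF3 site in the promoters of regulatory factors.

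By GENCODE annotation of GRCm38 (mm10, the build in the sample records), Myog lies on chromosome 1 from 134289989 to 134292548 on the plus strand and Myod1 on chromosome 7 from 46376474 to 46379099 on the plus strand. Pax7 lies on chromosome 4 from 139737062 to 139833528 on the minus strand. Myf5 and Myf6 are neighbors on the minus strand of chromosome 10, at 107482908 to 107486134 and 107492853 to 107494737, with 6718 bases between them. Mef2a is on chromosome 7, Mef2c on chromosome 13, Mef2d on chromosome 3 and Six4 on chromosome 12. The deposited expected counts of 8 members were whole numbers in all 4 libraries, while the 4 values of Six4 were not whole, as RSEM can give. Exons of Mef2a and Mef2d overlap 1 other listed gene each on the opposite strand, and how strand was used in the counting is not given in the sources used here.

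The promoter of Myog is shown because Myog had the largest difference of the 9, and because sites for several of the other members are known from it. The 250 bases before its RefSeq start (GRCm38.p6, chr1:134289754-134290003, plus strand, 5′ to 3′) are printed with motif matches in capitals.
Myog promoter: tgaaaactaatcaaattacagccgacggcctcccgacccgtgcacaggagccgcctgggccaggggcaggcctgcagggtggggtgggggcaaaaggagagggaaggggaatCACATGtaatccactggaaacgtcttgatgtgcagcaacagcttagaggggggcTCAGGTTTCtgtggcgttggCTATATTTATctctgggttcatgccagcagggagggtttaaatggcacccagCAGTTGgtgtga
The capitals mark, from left to right, the E-box CACATG, the MEF3 motif TCAGGTTTC, a match to the MEF2 consensus with its last base left free (CTATATTTAT) and the E-box CAGTTG. The GENCODE start of Myog lies 15 bases before that of RefSeq, so the last E-box falls within the GENCODE transcript. Both strands were searched for the E-box (CANNTG), MEF3 (TCAGGTTTC), the MEF2 consensus and the CArG box. At least 1 E-box was found in 66.2% of 32851 RefSeq promoter windows of this length, MEF3 in 0.387%, MEF2 in 2.92% and CArG in 1.47%. The MEF2 search with a free last base was added after this sequence had been read, and 7.03% of windows matched it. Among the other members with an entry (Pax7, Myf5, Mef2a, Mef2c, Mef2d and Six4), MEF3 was found in a promoter of Six4, E-boxes in 2 of 3 windows of Mef2c, and a MEF2 match with its last base free in 1 window of Mef2c. These matches describe letters and not binding.

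The deposited values were RSEM expected counts, which summed to between 22481391 and 27187425 per library. Values below are CPM, counts set relative to the library's total after TMM scaling (the trimmed mean of M-values), and compare a gene between libraries but not with another gene. All 9 members passed the filter on low counts (edgeR's filterByExpr), which left 13652 genes tested. A gene was called when its fold change exceeded 1.5 and its unadjusted p in edgeR's quasi-likelihood test was below 0.05, after the study's own thresholds. By this rule 1.26% of all genes tested came out higher and 2.74% lower with mCDCs. Of the 9 members, 4 were called higher, 0 lower and 5 not. In edgeR's quasi-likelihood test 0 genes, members or others, had an adjusted p under 0.05, while 947 had an unadjusted p under 0.05. DESeq2 gave 48 genes with an adjusted p under 0.05, the exact test 58 and the likelihood ratio test 66. With 2 libraries a group, exact permutation of 1 gene's values gives no two-sided p below 0.333. In bulk muscle, fewer cells of a type and less RNA per cell cannot be told apart.

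**Figure D1:**
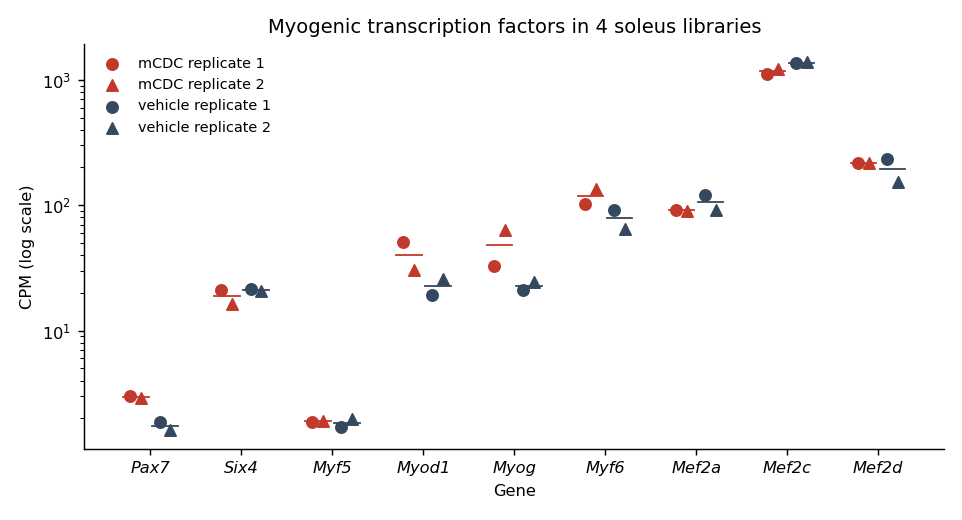
CPM on a log scale for each of the 9 genes; red symbols are the 2 mCDC and dark symbols the 2 vehicle libraries (circle, replicate 1; triangle, replicate 2), and lines are group means. For Pax7, Myod1, Myog and Myf6 both red symbols lie above both dark ones, for Mef2c they lie below, and the other 4 overlap.

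Both mCDC libraries lay above both vehicle libraries for the 4 members called higher, as they did for 19.2% of all genes tested. For Mef2c both lay below, as for 19.4% of all genes tested, and for Myf5, Mef2a, Mef2d and Six4 the groups overlapped. The median log2 fold change of the 9 members was 0.17, beside -0.0094 over all genes tested.

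Pax7, the satellite cell factor, was among the rarest transcripts of the 9. Its counts were 79 and 63 for mCDC replicates 1 and 2, against 49 and 44 for vehicle replicates 1 and 2. On the CPM scale these were 2.99 and 2.88 against 1.87 and 1.601, so the libraries of a group lay closer to each other than the groups did. The group levels were 2.93 ± 0.081 CPM (SD, n = 2) in mCDC and 1.74 ± 0.19 CPM (SD, n = 2) in vehicle muscles. The fold change was 1.69, with a 95% interval from 1.09 to 2.64 (edgeR's quasi-likelihood test, unadjusted p = 0.0256, adjusted p = 0.700). Its lowest mCDC library stood 1.54-fold above its highest vehicle library, the widest gap among the 9. Pax7 rested on 235 counts in all, and with DESeq2 it was not called (unadjusted p = 0.0874). It was also not called without mCDC replicate 1, mCDC replicate 2 or vehicle replicate 2, with fold changes of 1.66, 1.72 and 1.57.

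Six4, a homeobox factor that acts upstream of the regulatory factors, had 21.2 and 16.3 CPM in mCDC replicates 1 and 2 and 21.3 and 20.6 CPM in vehicle replicates 1 and 2. The groups overlapped, with mCDC replicate 2 below the other three libraries. Its log2 fold change was -0.16, with a 95% interval from -0.57 to 0.25, and it was 0.028 with a trend in transcript length and GC content taken out and 0.017 without mCDC replicate 2.

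Myf5, which together with Myod1 commits cells to the muscle lineage, had 49 and 42 counts for mCDC replicates 1 and 2, against 45 and 54 for vehicle replicates 1 and 2. At 1.86, 1.92, 1.72 and 1.96 CPM, the groups overlapped and no library stood out. The log2 fold change was 0.03 with a 95% interval from -0.64 to 0.71, and -0.059 without vehicle replicate 1. At 190 counts in all this interval still includes a change of 1.5-fold in either direction.

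Myod1, the activation factor, had 50.4 and 30.5 CPM in mCDC replicates 1 and 2 and 19.1 and 26.0 CPM in vehicle replicates 1 and 2. mCDC replicate 1 was by far the highest, and mCDC replicate 2 stood only 1.17-fold above vehicle replicate 2. The group levels were 40.5 ± 14.1 CPM (SD, n = 2) and 22.5 ± 4.85 CPM (SD, n = 2). The fold change was 1.80, with a 95% interval from 1.19 to 2.70 (edgeR's quasi-likelihood test, unadjusted p = 0.0108, adjusted p = 0.635). Without mCDC replicate 1 the fold change was 1.35 and without vehicle replicate 1 it was 1.56, and Myod1 was then not called.

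Myog, the differentiation factor, had 32.6 and 63.3 CPM in mCDC replicates 1 and 2 and 21.3 and 24.4 CPM in vehicle replicates 1 and 2. Here mCDC replicate 2 was by far the highest, 1.94-fold above mCDC replicate 1, while the vehicle libraries lay within 1.15-fold of each other. The fold change was 2.097, with a 95% interval from 1.33 to 3.30 (edgeR's quasi-likelihood test, unadjusted p = 0.00546, adjusted p = 0.612). With DESeq2 its adjusted p was 0.0390, the lowest among the 9. By p it stood at place 121 among all genes tested and at place 45 among the genes called higher. Without mCDC replicate 2 it was 1.42-fold higher and not called, and without mCDC replicate 1 it was 2.77-fold higher. Each of these fits had a lone mCDC library.

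Myf6, the factor of mature fibers, had 103 and 134 CPM in mCDC replicates 1 and 2 and 92.3 and 64.5 CPM in vehicle replicates 1 and 2. The groups did not overlap, but mCDC replicate 1 stood only 1.11-fold above vehicle replicate 1, while the 2 vehicle libraries differed 1.43-fold. The fold change of 1.51 lay just past the threshold, with a 95% interval from 1.09 to 2.096 (edgeR's quasi-likelihood test, unadjusted p = 0.0198, adjusted p = 0.684). It was 1.499 with the length and GC trend removed, 1.31 without mCDC replicate 2 and 1.28 without vehicle replicate 2, and in these fits Myf6 was not called.

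**Figure D2:**
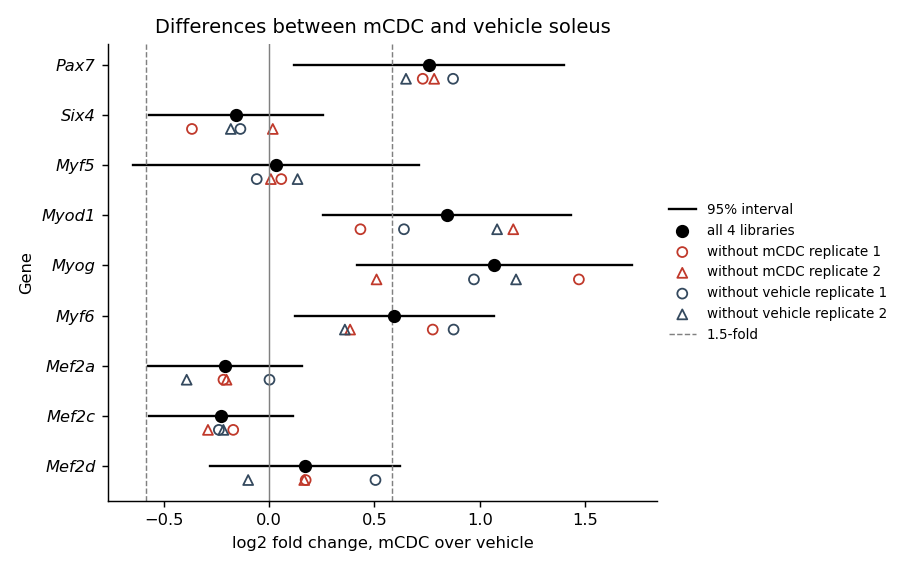
log2 fold change of mCDC over vehicle (x axis) for each gene (y axis); filled points use all 4 libraries with bars for the 95% interval, open symbols below them leave out 1 library each, and dashed lines mark 1.5-fold. The intervals of Pax7, Myod1, Myog and Myf6 lie above 0, and the open symbols of Myog run from 0.51 to 1.47.

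The 2 factors that are best known from regenerating muscle were each highest in a different mCDC muscle. Within a library, Myog over Myod1 in CPM was 0.65 in mCDC replicate 1 and 2.08 in mCDC replicate 2, and 1.11 and 0.94 in vehicle replicates 1 and 2. The mCDC libraries thus lay to either side of both vehicle libraries. The sum of both genes was 83.0 and 93.8 CPM in mCDC replicates 1 and 2, closer together than either gene alone, and 40.4 and 50.4 CPM in vehicle replicates 1 and 2, where Myog alone was closer together than the sum. Over all 4 regulatory factors the sum was 187 and 230 CPM for mCDC against 134 and 117 CPM for vehicle. The sums and ratios serve to compare libraries, and do not show which gene had more transcripts. The sums were formed after the values of the single genes had been seen and were not tested.

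**Figure D3:**
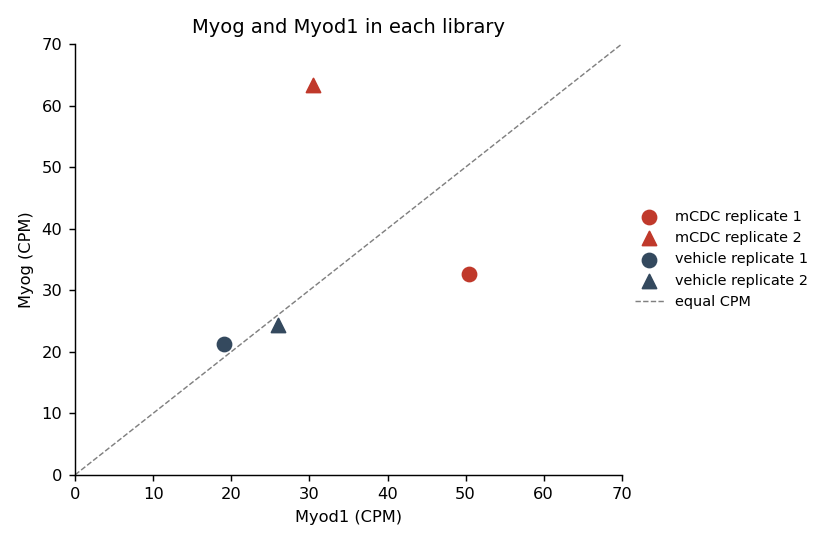
Myog (y axis) against Myod1 (x axis), both in CPM, with 1 symbol per library and a dashed line at a CPM ratio of 1, drawn to compare the ratio between libraries and not the levels of the genes. mCDC replicate 1 lies below the line at 50.4 and 32.6 CPM, mCDC replicate 2 above it at 30.5 and 63.3 CPM, and both vehicle libraries lie near the line at lower values.

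The adjacent genes Myf5 and Myf6 did not move alike in fold change, at 1.02 and 1.51, though the intervals overlap and the difference between them was not tested. Myf6 over Myf5 in CPM was 55.2 and 70.05 in mCDC and 53.8 and 32.9 in vehicle replicates 1 and 2. Vehicle replicate 2 had the lowest ratio.

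Of the MEF2 factors, which keep contractile and metabolic genes on in fibers, 0 of 3 were called, beside 1.26% of all genes higher and 2.74% lower, shares at which 3 genes would seldom hold a call. Mef2c had 1120 and 1216 CPM in mCDC replicates 1 and 2 and 1358 and 1378 CPM in vehicle replicates 1 and 2, and the groups did not overlap. Its log2 fold change was -0.23 with a 95% interval from -0.57 to 0.11 (edgeR's quasi-likelihood test, unadjusted p = 0.161, adjusted p = 0.765). With the length and GC trend removed it was -0.033.
Mef2a had 91.8, 90.8, 120 and 91.2 CPM in mCDC replicates 1 and 2 and vehicle replicates 1 and 2, so that vehicle replicate 1 alone stood apart. Its log2 fold change of -0.21 (95% interval from -0.57 to 0.16) was 0.0018 without that library and -0.036 with the length and GC trend removed.
Mef2d had 218, 219, 234 and 154 CPM in the same order, and here vehicle replicate 2 was low. Its log2 fold change of 0.17 (95% interval from -0.28 to 0.62) was -0.099 without vehicle replicate 2 and 0.51 without vehicle replicate 1. The summed CPM of the 3 genes, most of it from Mef2c, was 1430 and 1525 in the mCDC and 1711 and 1623 in the vehicle libraries. This sum was not tested.

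Levels were compared between members per length, as TPM, a length-corrected share of all transcripts, formed from the counts and the longest GENCODE transcript of each gene. Mef2c was the most abundant, with a mean of 476 TPM over the 4 libraries (SD 67.9), followed by Myf6 with 181 TPM (SD 46.9), Mef2d with 89.4 TPM (SD 16.0) and Myog with 54.6 TPM (SD 27.3). Mef2a had 41.9 TPM (SD 8.02) and Myod1 39.2 TPM (SD 15.3). Six4 had 6.85 TPM (SD 1.06), Myf5 2.097 TPM (SD 0.12) and Pax7 0.93 TPM (SD 0.24). Mef2d, Myog, Mef2a and Myod1 overlapped with their neighbors in this order over the 4 libraries, and the other neighbors did not overlap. Within single libraries, Myog was at place 3 in mCDC replicate 2 and at place 5 in the others. With coding length in place of transcript length, Myog and Mef2a exchanged places, and the means of Myf6 and Mef2d were 145 and 144 TPM, so the gap between these 2 genes depends on the length used.
Per length, Myf6 made up between 62.0% and 74.3% of the transcripts of the 4 regulatory factors in each library, and Myf5 between 0.555% and 1.15%. Myod1 took 20.7% and 9.86% for mCDC replicates 1 and 2, against 10.4% and 17.0% for vehicle replicates 1 and 2. Myog took 16.6% and 25.5%, and 14.4% and 19.8%, in the same order. The shares of both overlapped between the groups. Mef2c made up between 75.8% and 83.0% of the 3 MEF2 genes.

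**Figure D4:**
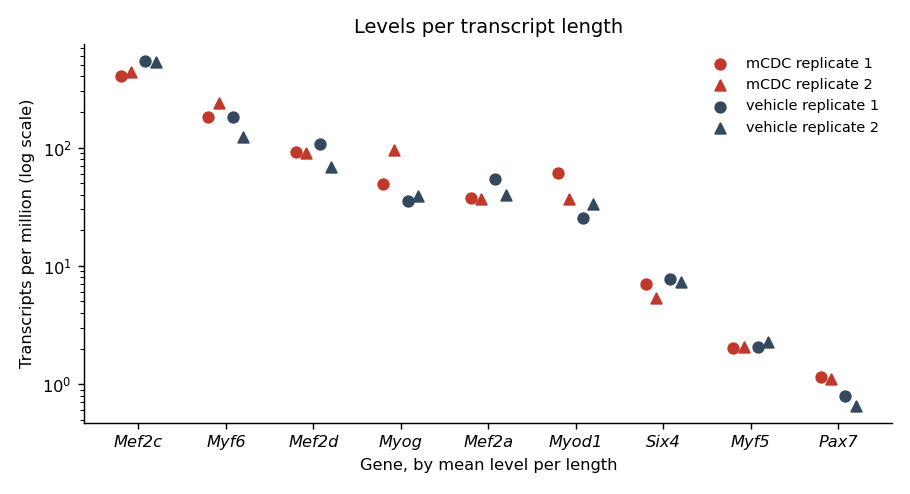
TPM on a log scale for the 9 genes, ordered by the mean over 4 libraries, with symbols as in the CPM plot. Mef2c is highest and Pax7 lowest in every library, while the points of Myog overlap those of Mef2d, Mef2a and Myod1.

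For each member, the 3 tested genes with the most similar pattern over the 4 libraries were found as those with the smallest root mean square difference in centred log2 CPM. For Myog these were Klf5, Hspb1 and Pdgfb, with differences of 0.045, 0.066 and 0.066, and 83 genes lay within 0.25. Klf5 had 17.2 and 31.1 CPM in the mCDC and 11.0 and 12.0 CPM in the vehicle libraries. For Myod1, Cldn2 and Arntl were among them, with differences of 0.096 and 0.12, and 38 genes lay within 0.25. Cldn2 had only 0.80 and 0.55 CPM in the mCDC and 0.31 and 0.44 CPM in the vehicle libraries, so its pattern rests on few counts. Arntl, a core activator of the circadian clock, had 19.9 and 14.2 CPM in the mCDC and 8.78 and 10.1 CPM in the vehicle libraries. For Myf6 they were Lbh, Rras2 and Murc (differences from 0.037 to 0.042), with 945 genes within 0.25, and for Pax7 Stc2, Mir17hg and Pprc1 (0.059 to 0.064), with 684 genes within 0.25. Between 4965 and 9148 genes lay within 0.25 of each of the other 5 members, and at such counts likeness to any gene says little. With 4 libraries, many patterns are close by necessity.

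The genes around the 9 were taken from hand-written lists, drawn up with earlier results of these data known. The shares called in such lists are a description and not a test. The lists left the members out and share some genes among them, 135 in all, of which 131 were tested. From each list the genes highest in CPM, which is not corrected for length, are named beside those called. Of 15 tested upstream factors (Eya and Dach genes and other regulators), 0 were called in either direction, beside 1.26% of all genes higher and 2.74% lower, and their median log2 fold change was -0.0072. Tbx1, a factor of head muscle and among the 3 highest in CPM of the list, had a log2 fold change of -0.0072, which was 0.0047 with DESeq2. Pax3, the relative of Pax7, had at most 3.24 counts in a library and was not tested.
Of 23 tested partners and coactivators, 0 were called, beside the same shares of all genes, with a median of 0.023. The highest in CPM were Vgll2, Ddx5 and Tead1, with log2 fold changes of 0.18, -0.23 and -0.13.
Of 24 tested inhibitors, 0 were called, again beside 1.26% and 2.74% of all genes, with a median of 0.092. At these shares, lists of this size would hold few calls. Bhlhe40, a repressor that also limits the clock, had 139 and 161 CPM in the mCDC and 120 and 112 CPM in the vehicle libraries, a log2 fold change of 0.37 (edgeR's quasi-likelihood test, unadjusted p = 0.0273, adjusted p = 0.705) that did not reach 1.5-fold. Hdac5 and Bhlhe41 had 0.097 and 0.11.

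Of 47 tested targets, genes of the fiber that the regulatory factors or MEF2 are known to act on, 3 were called higher (6.38%, beside 1.26% of all genes) and 2 lower (4.26%, beside 2.74%), with a median of 0.090. The 3 higher were Xirp1, Klhl40 and Cdkn1a. Xirp1, an actin-binding protein of injured and stretched fibers, had 1118 and 2267 CPM in mCDC replicates 1 and 2 and 814 and 557 CPM in vehicle replicates 1 and 2. Its log2 fold change was 1.303 (edgeR's quasi-likelihood test, unadjusted p = 0.0040, adjusted p = 0.571), and 0.70 without mCDC replicate 2. Klhl40, which stabilizes thin filament proteins, had 383 and 703 CPM against 287 and 282 CPM, and was, like Myog, highest in mCDC replicate 2. Its log2 fold change was 0.93, and without that library it was 0.43 and not called.
Cdkn1a, the cell cycle inhibitor p21, had 75.4 and 97.8 CPM against 40.8 and 52.1 CPM, a log2 fold change of 0.90 (edgeR's quasi-likelihood test, unadjusted p = 0.0012, adjusted p = 0.462). The lower targets were Fbxo32, a ubiquitin ligase of muscle atrophy that Myog is known to switch on after denervation, and Ppargc1a, a coactivator of mitochondrial genes. Fbxo32 had 271 and 211 CPM in the mCDC and 426 and 340 CPM in the vehicle libraries, and its log2 fold change was -0.67. That of Ppargc1a was -0.70. The targets highest in CPM, Acta1, Des and Tnnt1, had 0.16, 0.15 and 0.090 and were not called. Without mCDC replicate 2, without vehicle replicate 1, and with the length and GC trend removed, 0 targets were called lower. In these fits Fbxo32 had -0.50, -0.49 and -0.48 and Ppargc1a -0.57, -0.48 and -0.50, each with an unadjusted p under 0.05 in edgeR's quasi-likelihood test but under 1.5-fold.

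Of 21 tested satellite cell markers other than Pax7, 0 were called higher and 2 lower (9.52%, beside 2.74% of all genes), with a median of -0.080. Chodl had 2.35 and 2.101 CPM in the mCDC and 4.39 and 3.78 CPM in the vehicle libraries, a log2 fold change of -0.87. Peg3 had 15.1 and 8.54 CPM against 18.3 and 20.02 CPM, a log2 fold change of -0.69. Calcr, a receptor of quiescent satellite cells, had at most 12 counts in a library and was not tested. The markers highest in CPM, Nfix, Itga7 and Fgfr1, are made by other cells too and had 0.032, 0.42 and -0.19. Without mCDC replicate 2, Chodl and Peg3 were not called, at -0.80 and -0.34. Peg3 was also not called without vehicle replicate 1 (-0.75), without vehicle replicate 2 (-0.62) or with the length and GC trend removed (-0.49). Without vehicle replicate 1, 4 of the markers were called lower, Peg3 not among them, in a fit that called 835 of all genes lower, beside 374 with all libraries.
Of 15 tested genes that respond to the loss of the nerve, 3 were called higher, beside 1.26% of all genes, and 0 lower, with a median of 0.15. Among them were Runx1, a factor made in denervated fibers, and Ankrd1, a stress-responsive ankyrin repeat protein, with log2 fold changes of 0.66 and 0.72. Ankrd1 had 118 and 256 CPM in the mCDC and 118 and 110 CPM in the vehicle libraries, so its difference rested on mCDC replicate 2. Without that library its log2 fold change was 0.054, and it was also not called without vehicle replicate 1 (0.77), with DESeq2 (0.73) or with no filter on low counts (0.72). Runx1 had 18.8 and 30.7 CPM against 18.2 and 13.2 CPM, again highest in mCDC replicate 2, and its log2 fold change was 0.26 without that library and 0.44 without vehicle replicate 2. The genes of this list called higher with all libraries were not called without mCDC replicate 2 or without vehicle replicate 2. Each of these fits left a lone library in a group. The genes of this list highest in CPM, Myh3, Scn4a and Sln, had -0.15, -0.051 and 0.15.

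**Figure D5:**
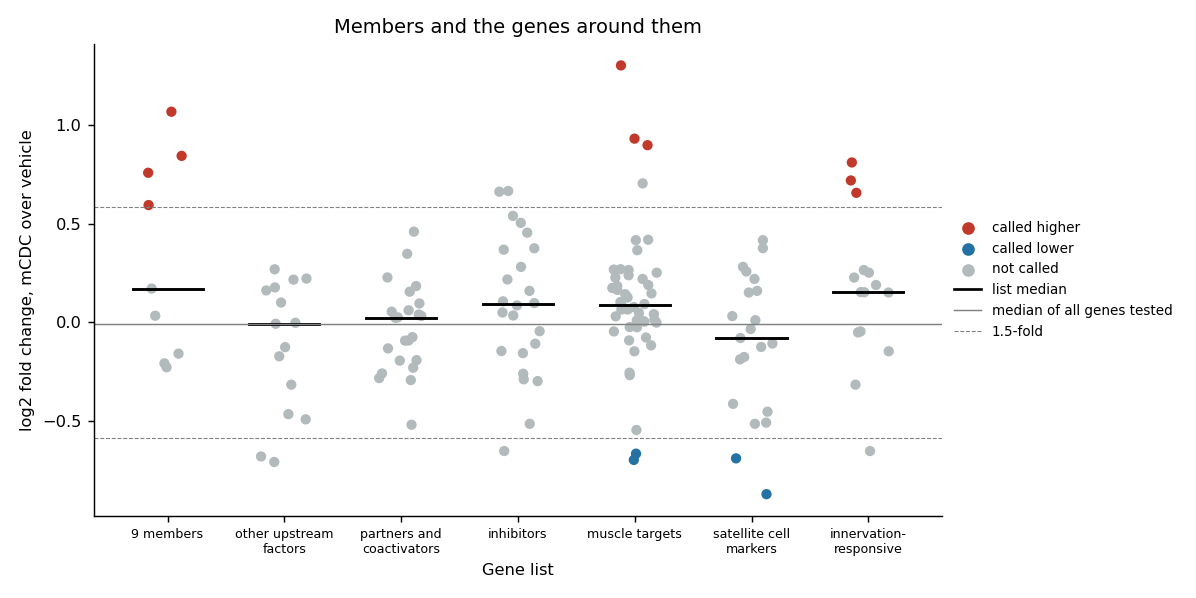
log2 fold change of mCDC over vehicle (y axis) for the 9 members and for 6 lists of related genes (x axis), 1 point per tested gene, with red for genes called higher and blue for genes called lower; black lines are list medians. Red points are 4 of the 9 members, 3 of 47 targets and 3 of 15 innervation genes, beside 1.26% of all genes tested. The members and lists were drawn up with earlier results of these data known.

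Summed markers of other cell types and the levels of clock genes also differed between libraries, and their part in the results above was not tested. Summed over 6 fibroadipogenic markers, vehicle replicate 2 had 555 CPM and the other libraries between 311 and 356 CPM. Summed over 6 endothelial markers it had 206 CPM and the others between 91.5 and 117 CPM, and it was also highest for the macrophage, Schwann, adipocyte, erythroid, smooth muscle and tendon markers. The sum of the 5 adipocyte markers was lower in both mCDC libraries, at 124 CPM in each, than in the vehicle libraries, at 142 and 204 CPM. Muscle fiber markers summed to between 104770 and 118280 CPM and overlapped between the groups. Lymphocyte markers summed to at most 0.303 CPM, with Cd3g and Ms4a1 at 0 in all 4 libraries. Of 14 clock genes, 2 were called higher (Arntl and Npas2), beside 1.26% of all genes, and 5 lower (Dbp, Hlf, Per2, Per3 and Ciart), beside 2.74%. Myod1 is known as a target of the clock activators, and the hour of tissue collection is not given in the sources used here. Without vehicle replicate 2, the fold changes of Pax7, Myod1, Myog and Myf6 were 1.57, 2.12, 2.25 and 1.28, and Pax7 and Myf6 were not called. Leaving out a library is not a test of cell composition.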

How the data were processed

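Per the labels and the paper's methods, single-end reads were aligned by the authors with Bowtie2 2.1.0 to UCSC transcripts (mm10), and RSEM 1.2.15 expected counts per gene symbol were deposited unscaled. The library kit named in the sample records differs from that in the methods. For this work, counts were rounded, filtered with filterByExpr, scaled by TMM and tested with edgeR 4.0.16 (quasi-likelihood F-test, legacy = FALSE; R 4.3.3), with Benjamini-Hochberg adjustment over 13652 genes. Intervals of 95% come from the standard error and the t quantile of the fit. The 9 genes and all lists were chosen with earlier results of these data known. Genes named from the lists are those called and the 3 with the highest mean CPM of each list. Some genes that this rule or the pattern comparison would name are not reported here. Lengths came from GENCODE M21 and promoters from RefSeq (GRCm38.p6). Library totals lay between 22481391 and 27187425. log2 CPM used a prior count of 2. Alternatives were DESeq2 1.42.0, other edgeR tests, scalings and filters, a replicate block, taking out a length and GC trend (99.1% of tested genes had both values) and leaving out each library. The code was tested on simulated data.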

Additional observations from a re-analysis of the deposited data

How the results depend on the processing

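Directions and calls held under the other scaling and the legacy test for every member. With DESeq2, Pax7 kept 0.7698 (log2) but was not called. Once the length and GC trend was taken out, Myf6 fell to 0.5836 and was not called, Six4 turned to 0.02789, the median of the 9 was 0.2559, 0 targets and 1 satellite cell marker were called lower, Tead1 was 0.08571 and Scn4a 0.07247, and 41.4% of all calls were higher, beside 31.5%. The partners' median was 0.05376 there and -0.0324 with at least 10 counts in every library. Tbx1 was 0.004683 with DESeq2. DESeq2 called 1 inhibitor higher, and DESeq2, the exact test, the likelihood ratio test and the replicate block each called 1 inhibitor and 1 innervation gene lower. Coding length moved 2 members in the order of levels. The causes were not tested.

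The replicate numbers share only a label: deviations of same-numbered libraries correlated at -0.0388 over genes. With the replicate block, 172 genes were called higher and 308 lower, 4 members stayed higher, and 1 innervation gene was called higher, beside 3, since Runx1 (0.6335) and Ankrd1 (0.6165) were not called.

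Leaving out 1 library at a time gave from 103 to 383 genes called higher and from 226 to 835 called lower. The members called higher numbered from 1 to 3, with 1 left without mCDC replicate 2. Log2 fold changes ran from 0.6499 to 0.8733 for Pax7, from -0.05873 to 0.135 for Myf5, from 0.4336 to 1.159 for Myod1, from 0.5101 to 1.471 for Myog, from 0.3597 to 0.8759 for Myf6, from -0.3914 to 0.00183 for Mef2a, from -0.09936 to 0.5051 for Mef2d, from -0.3663 to 0.01748 for Six4. The median of the 9 ran from 0.135 to 0.5051. Medians ran from -0.08865 to 0.007875 for upstream factors, from -0.07303 to 0.004137 for partners, from -0.1094 to 0.1928 for inhibitors, from 0.06569 to 0.1415 for targets, from -0.3175 to 0.07465 for satellite cell markers, from 0.05447 to 0.2121 for innervation genes. Counts called higher ran from 0 to 2 for inhibitors, from 2 to 5 for targets, from 0 to 1 for satellite cell markers, from 0 to 3 for innervation genes. Counts called lower ran from 0 to 2 for upstream factors, from 0 to 1 for inhibitors, from 0 to 2 for targets, from 0 to 4 for satellite cell markers, from 0 to 1 for innervation genes. Of the list genes named by the rule, the direction turned in at least 1 such fit for Tbx1 (-0.08851 to 0.07896), Vgll2 (-0.02975 to 0.4351), Tead1 (-0.3732 to 0.1571), Bhlhe41 (-0.07086 to 0.2628), Nfix (-0.07946 to 0.1522), Scn4a (-0.3384 to 0.2121), Sln (-0.06833 to 0.4134).
With 2 libraries per group, leaving 1 out assumes that the lone library varies like the other group. The depth of Pax7 and Myf5, under 100 counts a library, limits what they can show.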
